A study of Mus musculus with 6 samples.

Results

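Kinesins are the motor proteins that use ATP to move along, or to take apart, microtubules. All genes with a symbol made of Kif or Kifc and a number were taken as members, which gave 42 genes of 23185 named on the arrays. Of these, 12 make up the mitotic set (Kif2c, Kif4, Kif11, Kif14, Kif15, Kif18a, Kif18b, Kif20a, Kif20b, Kif22, Kif23 and Kifc1), and the other 30 carry cargo in resting cells, build cilia or have other roles. RNA came from macrophages that had been differentiated in culture from mouse marrow precursors. There were 3 untreated controls and 3 samples that had received 0.3 micromole of JG-98, a small molecule that blocks Hsp70, for 16 hours. The labels state the dose as an amount without a volume, and they name no vehicle, strain or age. Each sample was hybridised to 1 single-colour Affymetrix array, and all levels below are the deposited log2 expression values.

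Mitotic kinesins build the spindle, align and pull apart the chromosomes and split the cell, and their genes are mostly transcribed in the G2 and M phases of dividing cells. Transport kinesins move vesicles, mitochondria, lysosomes and messenger RNA outward along microtubules, and they are made whether or not a cell divides. Macrophages grown from marrow divide in response to their growth factor, so that a culture of them holds transcripts of both kinds. In a bulk RNA sample, fewer cells in mitosis and less RNA per cell cannot be told apart.

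JG-98 replicate 3 stood somewhat apart from the other arrays. It correlated with them at 0.992 to 0.994 across all probe sets, against 0.995 to 0.996 among the other 5, and its median of 4.24 was the highest, with the others at 4.08 to 4.15. The medians of the kinesin sets and of the gene lists are therefore given with and without it. The macrophage markers lay well above the array medians, with control means of 11.24 for Csf1r, the receptor for the macrophage growth factor, 10.8 for Adgre1, also called F4/80, and 10.62 for Itgam. Markers of neutrophils, B cells, T and NK cells and mast cells had no member with a mean of 4 or more.

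Every one of the 12 mitotic kinesins had a lower mean with JG-98, by 0.15 to 0.39 on the log2 scale, and the 30 other kinesins lay on both sides of 0. The median difference, JG-98 minus control, was -0.23 for the mitotic set, which is 1.17-fold lower, and 0.025 for the others, against 0.00080 for all 25206 probe sets, of which 5.52% lay at or below the mitotic median. After adjustment over all probe sets, limma called 0 of the 42 kinesins, and it called 10 probe sets in all (0.0397%). The smallest adjusted p of any kinesin in limma was 0.36, for Kif18b. At an unadjusted p under 0.05, 9 of the 12 mitotic kinesins were lower, where 4.48% of all probe sets were, and 2 of the other 30 were higher, where 3.84% were. In 11 of the 12 mitotic kinesins all JG-98 values lay below all control values, a pattern seen in 8.44% of all probe sets. None of the other 30 kinesins showed it, and 3 of them showed the opposite pattern, which 7.12% of all probe sets had.

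**Figure D1:**
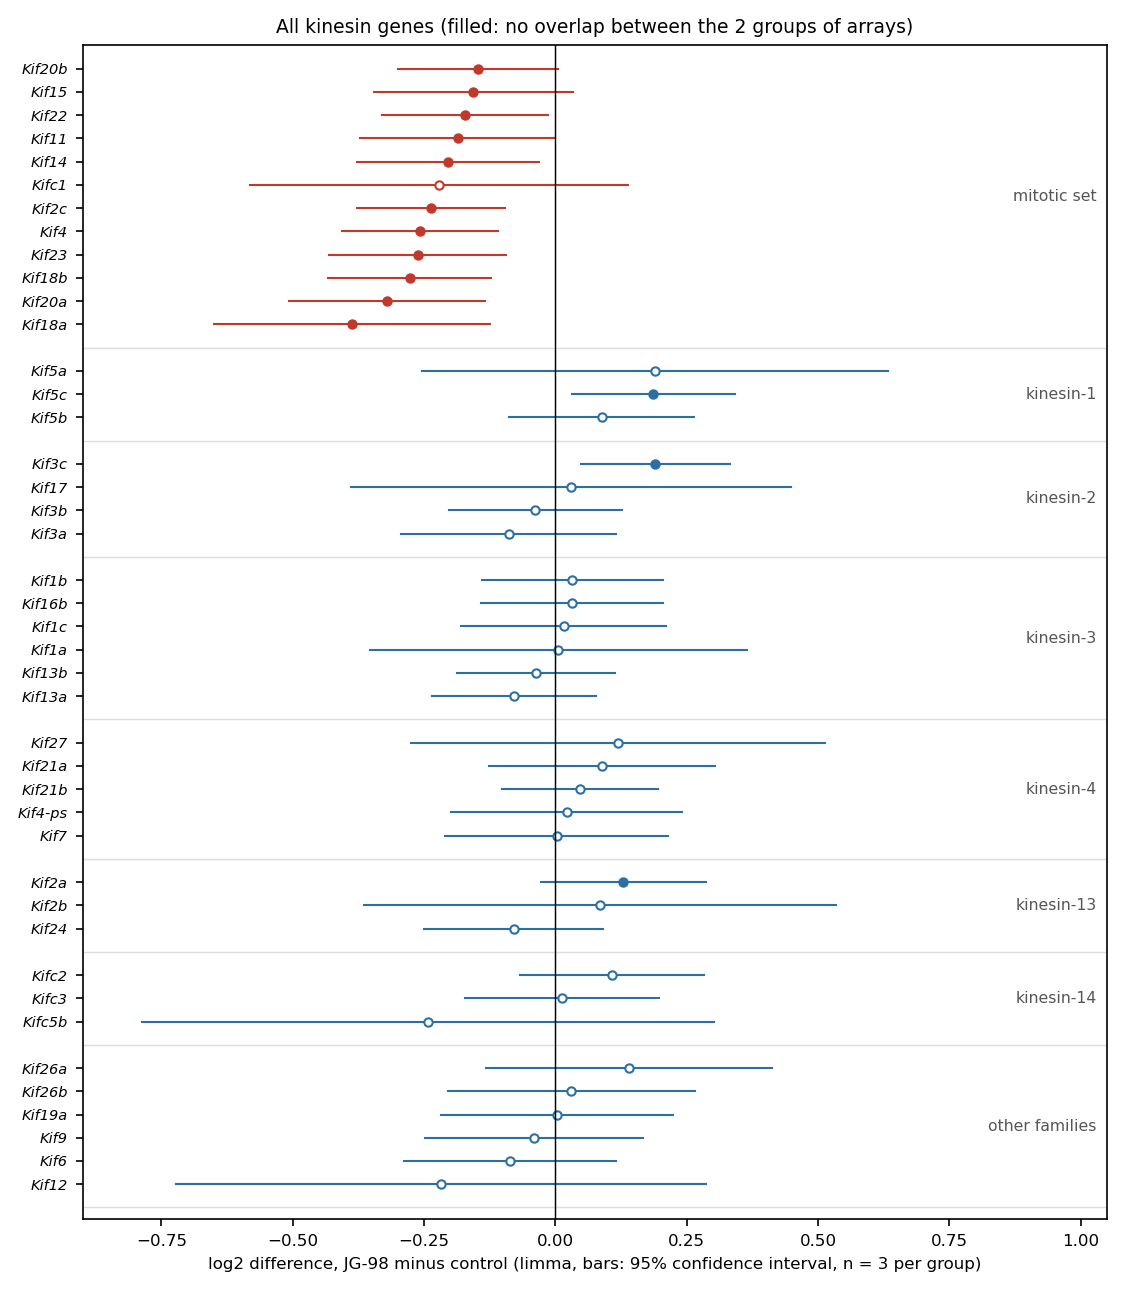
Log2 difference (JG-98 minus control, horizontal axis) of all 42 kinesin genes, grouped by the mitotic set and by family, with 95% confidence intervals from limma (n = 3 per group) and filled points where the groups of arrays do not overlap. All 12 mitotic genes lie left of 0, between -0.39 and -0.15, and the other 30 spread from -0.24 to 0.19.

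The number of kinesins called depended on how dim probe sets were treated. When only the 8064 probe sets with a mean of at least 6 were tested, limma called 6 kinesins, namely Kif2c, Kif4, Kif18b, Kif20a and Kif23 as lower and Kif3c as higher, with 4.77% of those probe sets called. With an intensity trend in the prior variance it called Kif2c, Kif18b, Kif20a and Kif23, where 1.01% of all probe sets were called. All 12 mitotic kinesins and 12 of the other 30 reached a mean of 6. Within these brighter genes the medians were -0.23 for the mitotic set and 0.023 for the others, and 11 of 12 against 0 of 12 had all JG-98 values below all controls. That pattern held in 16.7% of all probe sets of this brightness, and 4.65% of them had a difference as low as the mitotic median.

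The mitotic genes were also compared by the sequence around their start sites. The cell cycle genes homology region, or CHR, is a short promoter element known to be bound by the MuvB-based complexes that silence G2 and M phase genes in resting cells and activate them in dividing cells, and it often stands near a CCAAT box. Promoters of 250 bases before and 50 bases after an annotated transcript start came from a set built on RefSeq (GRCm38.p6), which held 33 of the 42 kinesins. Of the mitotic set, Kif20a had no entry there and its promoter was not searched. The letters TTTGAA (CHR) and CCAAT were searched on both strands. TTTGAA was found in 10 of 11 mitotic kinesins (90.9%), in 4 of 22 other kinesins (18.2%) and in 20.2% of all 27025 genes with a promoter. CCAAT was found in 7 of 11 (63.6%), 9 of 22 (40.9%) and 41.1%, and both together in 63.6%, 13.6% and 8.97%. A match is a description of letters, and binding was not measured here.

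In 8 of the 11 mitotic promoters TTTGAA lay wholly within 25 bases of the start, as it did in 1 of the 22 others (Kif26b) and in 2.88% of all genes. That distance was chosen after the positions were seen. These 8 are printed here because they hold the element within that distance. Its first base lies between position -19 (Kif11 and Kif15) and position 20 (Kif4) relative to the start. In Kif11, Kif15, Kif22 and Kifc1 it stands on the opposite strand. Each line runs 5′ to 3′ along the gene's own strand from 70 bases before the start to 25 bases after it, and capitals mark TTTGAA or CCAAT, or their reverse complements TTCAAA and ATTGG.
Kif4, chrX:100625995-100626089, plus strand: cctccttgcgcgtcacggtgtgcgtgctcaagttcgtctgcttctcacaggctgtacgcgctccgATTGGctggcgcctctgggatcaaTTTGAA
Kif11, chr19:37376312-37376406, plus strand: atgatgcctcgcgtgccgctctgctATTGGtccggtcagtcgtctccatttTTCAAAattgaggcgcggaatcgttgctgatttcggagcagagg
Kif15, chr9:122951011-122951105, plus strand: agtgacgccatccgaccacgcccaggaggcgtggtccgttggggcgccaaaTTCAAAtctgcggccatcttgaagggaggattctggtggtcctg
Kif18b, chr11:102925100-102925194, minus strand: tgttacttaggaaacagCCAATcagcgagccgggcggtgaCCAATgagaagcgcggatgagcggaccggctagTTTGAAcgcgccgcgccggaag
Kif20b, chr19:34922288-34922382, plus strand: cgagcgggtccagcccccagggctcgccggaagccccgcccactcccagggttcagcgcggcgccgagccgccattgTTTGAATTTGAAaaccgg
Kif22, chr7:127042396-127042490, minus strand: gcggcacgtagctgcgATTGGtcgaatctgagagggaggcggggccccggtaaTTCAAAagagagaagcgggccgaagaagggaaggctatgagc
Kif23, chr9:61946775-61946869, minus strand: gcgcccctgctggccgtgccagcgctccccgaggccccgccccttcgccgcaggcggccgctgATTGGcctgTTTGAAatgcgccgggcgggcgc
Kifc1, chr17:33890609-33890703, minus strand: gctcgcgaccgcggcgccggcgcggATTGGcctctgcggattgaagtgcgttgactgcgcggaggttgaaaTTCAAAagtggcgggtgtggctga

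In Kif20b 2 copies of TTTGAA stand end to end, at positions 8 to 13 and 14 to 19 after the start. In Kif2c and Kif14 the match lay farther out, 103 and 228 bases before the start, and the start used for these genes lies 3852 and 1547 bases inside the gene's outer end in the same RefSeq build. No TTTGAA was found in the window of Kif18a. Among the partner genes described below, TTTGAA stood in the promoters of 14 of 20 spindle and kinetochore genes (70%) and 6 of 9 central spindle and cytokinesis genes (66.7%). It stood in 4 of 9 mitotic entry regulators (44.4%), 1 of 11 tubulins (9.09%), 1 of 15 DNA replication genes (6.67%), 2 of 18 kinesin light chain and adaptor genes (11.1%), 1 of 18 dynein and dynactin genes (5.56%) and 0 of 15 intraflagellar transport genes. Wholly within 25 bases of the start it lay in 7 of 20 spindle and kinetochore genes (35%) and 4 of 9 cytokinesis genes (44.4%). It lay there in 2 of 9 mitotic entry regulators (22.2%) and in 0 genes of each remaining list. The near-start match was thus not limited to the kinesins. CCAAT stood in 44.4% to 77.8% of the promoters of each list, among them 66.7% for DNA replication and 73.3% for intraflagellar transport.

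**Figure D2:**
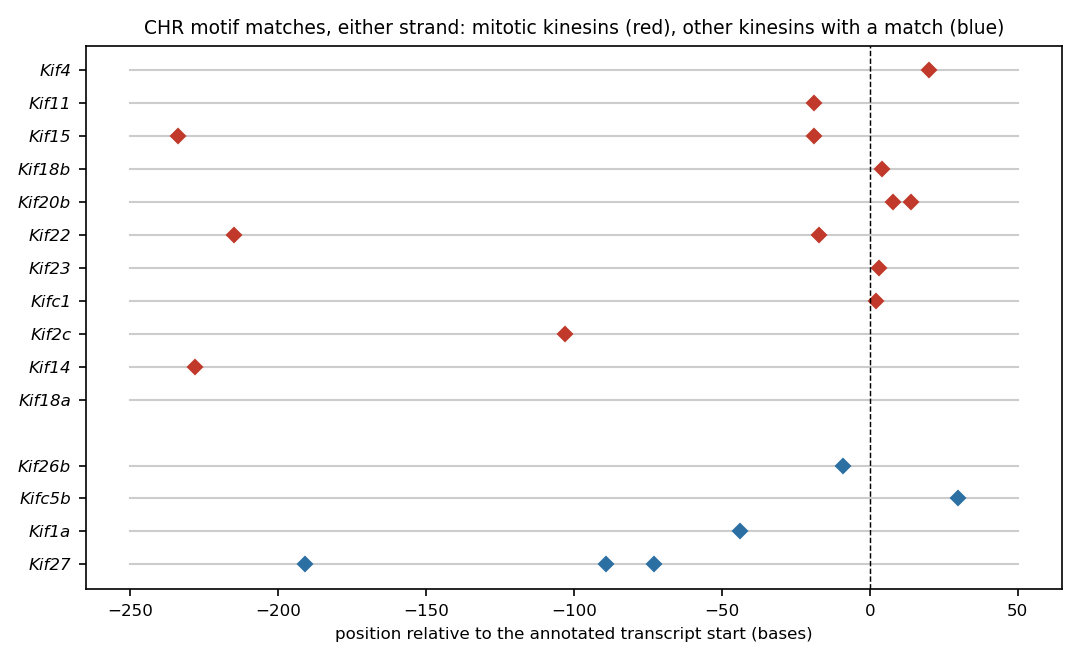
Position in bases, relative to the annotated transcript start at the dashed line, of each CHR match on either strand in the 11 mitotic kinesin promoters (red) and in the 4 other kinesin promoters that hold one (blue). In 8 mitotic genes a match lies within 25 bases of the start, and Kif18a has none.

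The first role is to set up a bipolar spindle. Kif11, also called Eg5, cross-links antiparallel microtubules and pushes the poles apart. Its control values were 9.05, 9.11 and 9.07 and its JG-98 values 8.93, 8.98 and 8.77, so the groups did not overlap and JG-98 replicate 3 was the lowest. The log2 difference was -0.19 ± 0.077 (SE, n = 3 per group; limma adjusted p = 0.60). Kif15, which can stand in for Kif11 in keeping the poles apart, was at 7.47, 7.65 and 7.57 in controls and at 7.46, 7.45 and 7.31 with JG-98. The groups were separated by only 0.017, and the difference was -0.16 ± 0.079 (limma adjusted p = 0.68).

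Kifc1, or HSET, walks toward the minus end, focuses the poles and gathers extra centrosomes. Its control values were 6.61, 7.11 and 7.04, and its JG-98 values were 6.87, 6.60 and 6.64. Control replicate 1 lay among the JG-98 values, so that this was the one mitotic kinesin whose groups overlapped, with a difference of -0.22 ± 0.15 (limma adjusted p = 0.76). Leaving out control replicate 1 gave -0.38, and leaving out control replicate 2 gave -0.13. Kifc5b, a closely related gene counted among the other kinesins, was at 5.56, 5.09 and 5.33 in controls and at 4.60, 5.30 and 5.37 with JG-98, a difference of -0.24 ± 0.23 (limma adjusted p = 0.83). Within each group the array with the highest Kifc1 value had the lowest Kifc5b value. Whether probes were shared between these near copies could not be looked up, so both genes are uncertain. Without JG-98 replicate 1 the difference of Kifc5b was 0.0041.

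The second role is to act on microtubule plus ends and chromosome arms. Kif18a, which shortens the swings of chromosomes at the spindle equator, had the most negative difference of the 42 kinesins. Its values were 6.64, 6.56 and 6.33 in controls and 6.10, 6.26 and 6.01 with JG-98, with no overlap. The difference was -0.39 ± 0.11, which is 1.31-fold lower (limma adjusted p = 0.43), and it ranged from -0.48 to -0.32 when any 1 array was left out.

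Kif18b, its relative that trims astral microtubules, was at 8.30, 8.22 and 8.23 in controls and at 7.96, 8.02 and 7.93 with JG-98. Its groups lay 0.20 apart, and the difference was -0.28 ± 0.065 (limma adjusted p = 0.36). Kif2c, or MCAK, takes microtubules apart to release wrongly attached chromosomes and works together with Kif18b. It was at 8.87, 8.88 and 8.89 in controls and at 8.64, 8.66 and 8.62 with JG-98. This was the tightest of the mitotic kinesins, with SDs of 0.010 in controls and 0.019 with JG-98, and the gap between its groups, 0.21, was the widest. Its difference was -0.24 ± 0.059 (limma adjusted p = 0.38).

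Kif4 is a chromokinesin that shapes chromosome arms and sets the length of the central spindle. It measured 7.545, 7.505 and 7.557 in controls and 7.26, 7.32 and 7.25 with JG-98, and its groups were 0.18 apart. The difference was -0.26 ± 0.062 (limma adjusted p = 0.36). Kif22, or Kid, pushes chromosome arms toward the equator. It measured 7.85, 7.77 and 7.77 in controls and 7.57, 7.61 and 7.68 with JG-98. All its JG-98 values were below its controls, but here JG-98 replicate 3 was the highest of the treated arrays, and the difference was -0.17 ± 0.066 (limma adjusted p = 0.56).

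The last role is cytokinesis, and it includes Kif20a, which had the next most negative difference after Kif18a. Kif20a, or MKLP2, carries the chromosomal passenger complex to the central spindle. It was at 9.23, 9.07 and 9.09 in controls and at 8.83, 8.88 and 8.72 with JG-98. No values overlapped, and the difference was -0.32 ± 0.078, which is 1.25-fold lower (limma adjusted p = 0.37).

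Kif23, or MKLP1, bundles the central spindle in a complex with Racgap1. It was at 9.49, 9.38 and 9.48 in controls and at 9.25, 9.18 and 9.12 with JG-98, again without overlap. Its difference was -0.26 ± 0.071 (limma adjusted p = 0.41), and that of Racgap1 was also -0.26, at ± 0.062 (limma adjusted p = 0.36). Kif14, which binds citron kinase at the midbody, was at 6.73, 6.72 and 6.80 in controls and at 6.54, 6.64 and 6.47 with JG-98. Its difference was -0.20 ± 0.072 (limma adjusted p = 0.52).

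Kif20b, or MPP1, acts late in cell separation and had the difference nearest to 0 of the mitotic set. Its values were 8.43, 8.46 and 8.46 in controls and 8.28, 8.36 and 8.26 with JG-98. The groups did not overlap, and the difference was -0.15 ± 0.064 (limma adjusted p = 0.62). Cenpe, the kinetochore kinesin of the kinesin-7 family, has no Kif symbol and is no member. It was at 8.71, 8.75 and 8.79 in controls and at 8.61, 8.62 and 8.57 with JG-98, a difference of -0.15 ± 0.062 (limma adjusted p = 0.59) that put it with the smaller differences of the mitotic set.

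**Figure D3:**
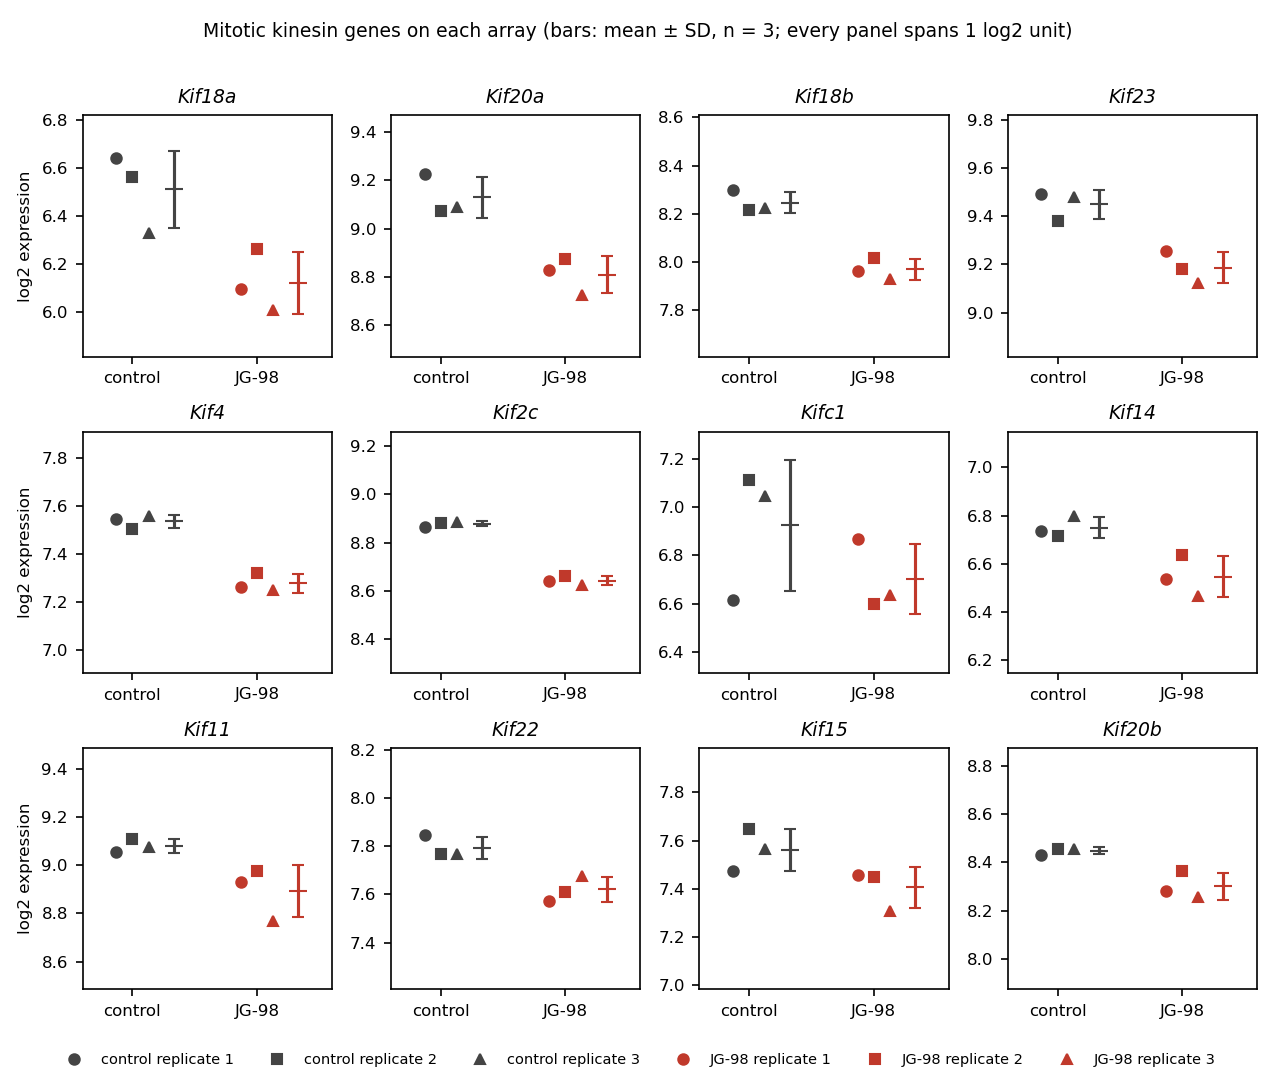
Log2 expression of the 12 mitotic kinesins on each array (points), with the mean ± SD of 3 arrays per group beside them, ordered from the most negative difference. Each panel spans 1 log2 unit. Only in Kifc1 do the groups overlap, through control replicate 1.

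JG-98 replicate 3 had the lowest JG-98 value in 10 of the 12 mitotic kinesins and the highest in 17 of the other 30. Taking each gene's deviation from its own control mean, the median over the mitotic set was -0.22, -0.22 and -0.29 on JG-98 replicates 1, 2 and 3, and -0.010 to 0.0053 on the controls. All 12 genes were below their control mean on each of the 3 JG-98 arrays. Without JG-98 replicate 3 the mitotic median was -0.21, and 11 of the 12 still had every JG-98 value below every control. Fewer arrays separate more easily, and in that setting 16.7% of all probe sets did so. The mitotic median minus that of the other kinesins was -0.23, -0.22 and -0.36 on the JG-98 arrays and -0.023 to 0.019 on the controls. Left-out arrays moved the difference between the medians within -0.30 and -0.20.

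The kinesin-1 motors, which pull vesicles, mitochondria and lysosomes outward, all had a difference above 0. Kif5b, the widely expressed heavy chain, was at 9.54, 9.47 and 9.52 in controls and at 9.64, 9.67 and 9.49 with JG-98. Its groups overlapped, with a difference of 0.088 ± 0.073 (limma adjusted p = 0.81) and a 95% interval from -0.087 to 0.26. Kif5c, a form known from neurons, was at 3.21, 3.29 and 3.33 in controls and at 3.46, 3.45 and 3.49 with JG-98, without overlap. The difference was 0.19 ± 0.065 (limma adjusted p = 0.52), but these levels lie below the median of each array, where signal and background are hard to separate. Kif5a, also neuronal, differed by 0.19 ± 0.19, with 4.48 on JG-98 replicate 3 and 3.73 to 4.06 on the other 5 arrays.

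The kinesin-2 motors serve cilia and vesicles as heterodimers of Kif3a with Kif3b or Kif3c. Kif3c stood out from its partners, with 6.09, 6.04 and 6.07 in controls and 6.26, 6.25 and 6.26 with JG-98. Its groups lay 0.16 apart, and the difference was 0.19 ± 0.059, which is 1.14-fold (limma adjusted p = 0.48). Kif3a was at 8.23, 8.28 and 8.10 in controls and at 8.22, 8.10 and 8.01 with JG-98, and its groups overlapped, with a difference of -0.089 ± 0.085 (limma adjusted p = 0.84). Kif3b differed by -0.038 ± 0.069 and Kif17 by 0.029 ± 0.17. Kifap3, the subunit that links Kif3 motors to cargo and is no member by its symbol, differed by -0.14 ± 0.10 (limma adjusted p = 0.78).

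Kinesin-3 motors are long-range carriers of vesicles and endosomes, apart from the mitotic Kif14 of the same family (-0.20). None of the 6 kinesin-3 genes outside the mitotic set differed by more than 0.079 in size. Kif13a was at 6.30, 6.34 and 6.21 in controls and at 6.19, 6.22 and 6.21 with JG-98, a difference of -0.079 ± 0.065 (limma adjusted p = 0.81). Kif13b was at 7.90, 7.88 and 7.89 in controls and at 7.91, 7.81 and 7.84 with JG-98, a difference of -0.037 ± 0.063 (limma adjusted p = 0.92). The groups overlapped in both. Kif1b, Kif1c and Kif16b differed by 0.032 ± 0.072, 0.016 ± 0.082 and 0.031 ± 0.072, and none of their 95% intervals reached below -0.18. The neuronal Kif1a, at means of 3.6 in both groups, differed by 0.0058 ± 0.15.

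In the kinesin-13 family, Kif2a, which takes microtubules apart in interphase cells and neurons as well as at spindle poles, was at 7.35, 7.33 and 7.41 in controls and at 7.49, 7.55 and 7.44 with JG-98. Its JG-98 values were all above its controls, with a difference of 0.13 ± 0.065 (limma adjusted p = 0.68), opposite in sign to that of Kif2c. Kif24, which acts at centrioles, was at 6.42, 6.38 and 6.29 in controls and at 6.34, 6.28 and 6.22 with JG-98, a difference of -0.079 ± 0.071 (limma adjusted p = 0.82). Kif2b lay at 2.16 to 2.79 on all arrays, and its difference was 0.085 ± 0.19.

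In the kinesin-4 family all 5 genes outside the mitotic set had differences above 0, from 0.0027 to 0.12, and overlapping groups. After median centring the split of all 30 other kinesins was 16 above 0, against 21 as deposited, so the side of 0 on which such small values fall depends on the scaling. Kif21b, a regulator of microtubule growth in neurons and lymphocytes, was at 6.91, 6.94 and 6.99 in controls and at 7.02, 6.98 and 6.98 with JG-98, a difference of 0.047 ± 0.062 (limma adjusted p = 0.89). Kif21a had means of 1.99 in controls and 2.08 with JG-98 (0.088 ± 0.090), Kif27 at 2.44 to 2.95 and the pseudogene Kif4-ps at 2.99 to 3.23. Kif7, which works in Hedgehog signalling, differed by 0.0027 ± 0.089. In the kinesin-14 family, Kifc2 was at 4.802, 4.936 and 4.880 in controls and at 4.98, 4.91 and 5.05 with JG-98, a difference of 0.11 ± 0.073 (limma adjusted p = 0.76), and Kifc3 differed by 0.012 ± 0.077.

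Among the 6 genes of other families, Kif26a was at 4.003, 4.336 and 4.365 in controls and at 4.402, 4.281 and 4.440 with JG-98, and its difference was 0.14 ± 0.11 (limma adjusted p = 0.80), or 0.024 without control replicate 1. Kif12 was at 4.404, 4.246 and 4.385 in controls and at 3.97, 3.78 and 4.63 with JG-98. JG-98 replicate 3 was its highest value of all, and the difference was -0.22 ± 0.21, with a range from -0.47 without that array to -0.046 without JG-98 replicate 2. Kif6, Kif9, Kif19a and Kif26b differed by -0.086 to 0.031. Of the other 30 kinesins, 8 had a mean under 4 (Kif1a, Kif2b, Kif4-ps, Kif5a, Kif5c, Kif6, Kif21a and Kif27), levels at which signal and background are hard to separate. The median of the 30 was -0.013 without JG-98 replicate 3, with 13 above 0 and 17 below. In that setting 3 of the 30 had every JG-98 value below every control, where 16.7% of all probe sets did. Another 5 had every JG-98 value above, a pattern that 3459 of the 25206 probe sets showed.

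Most listed partners of the mitotic kinesins also had a lower mean with JG-98. Their lists were chosen with earlier results of these data known, so they give no independent support. In the list of 23 spindle and kinetochore genes, all 23 had a difference below 0, 17 were lower at an unadjusted p under 0.05 (4.48% of all probe sets), and 20 had every JG-98 value below every control (8.44%). Over all 25206 probe sets, 12536 had a difference below 0. None of the 23 listed genes passed after adjustment, and their median was -0.22, or -0.18 without JG-98 replicate 3. Cenpa, the centromeric histone, differed by -0.38 ± 0.068 (limma adjusted p = 0.24) and Cdc20, which triggers anaphase, by -0.39 ± 0.073 (limma adjusted p = 0.27). The checkpoint kinase gene Bub1b was at -0.29 ± 0.062 and the kinetochore gene Spc24 at -0.29 ± 0.065.

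Of 11 measured central spindle and cytokinesis genes, 10 were below 0 and 7 were lower at an unadjusted p under 0.05, against 4.48% of all probe sets. The median was -0.20, and -0.16 without JG-98 replicate 3. Cep55, needed for the final cut, was at 8.07, 8.07 and 8.04 in controls and at 7.73, 7.79 and 7.73 with JG-98, a difference of -0.31 ± 0.061 (limma adjusted p = 0.28). Birc5, or survivin, which rides with Kif20a in the passenger complex, differed by -0.32 ± 0.090, and Ect2, the exchange factor recruited by centralspindlin, by -0.20 ± 0.059. In the intensity trend fit and with the mean of 6, limma called Cenpa, Cdc20, Bub1b, Spc24, Cep55, Racgap1 and Ect2 as lower. These fits called 1.01% and 4.77% of the probe sets tested. Only the 4 genes with the smallest p of each list were read in them, so no count over the whole lists is given.

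The 13 measured regulators of mitotic entry were less uniform, with 9 below 0 and 3 lower at an unadjusted p under 0.05 (4.48% of all probe sets). Their median was -0.079, moving to -0.066 if JG-98 replicate 3 was left out and to -0.13 if control replicate 2 was. Ccnb2 differed by -0.31 ± 0.083, Cdc25c by -0.35 ± 0.098 and Foxm1, a transcription factor of G2 and M phase genes, by -0.19 ± 0.072. The cyclin gene Ccna2 was at -0.15 ± 0.072. Of these 4, limma called Ccnb2 with the mean of 6, where 4.77% of the probe sets tested were called. Of the 20 DNA replication and G1/S genes, active in an earlier phase of the same cycle, 15 were above 0. At an unadjusted p under 0.05, 1 was higher and 1 lower, which is near the shares over all probe sets (3.84% and 4.48%). Their median was 0.039, moving to 0.027 if JG-98 replicate 3 was left out and to 0.017 if control replicate 2 was. The licensing factor gene Cdt1 differed by 0.28 ± 0.085 and the helicase gene Mcm7 by -0.17 ± 0.062, while Chaf1a and Mcm2 were at 0.13 ± 0.099 and 0.085 ± 0.075. None of these genes passed after adjustment over all probe sets.

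Genes that serve the transport kinesins had differences in both directions. Of 18 measured light chains and cargo adaptors, 12 were below 0, and 2 were lower and 1 higher at an unadjusted p under 0.05 (4.48% and 3.84% of all probe sets). In 6 of the 18 all JG-98 values lay below all controls (8.44% of all probe sets), and in 2 all lay above (7.12%). The median was -0.057, or -0.047 without JG-98 replicate 3, and it stayed within -0.068 and -0.047 with any 1 array left out. Rhot1, or Miro1, which anchors mitochondria to kinesin-1, was at 7.93, 7.85 and 7.91 in controls and at 8.17, 8.22 and 8.16 with JG-98, a difference of 0.29 ± 0.063 (limma adjusted p = 0.33). Its groups did not overlap, and its adjusted p was smaller than that of any kinesin. Plekhm1, a lysosomal adaptor, was at -0.24 ± 0.068, Syne2 at -0.17 ± 0.063 and Mapk8ip3 at 0.19 ± 0.10. Rhot1 and Plekhm1 were called in opposite directions with the mean of 6 and with the intensity trend. Those fits called 4.77% and 1.01% of the probe sets tested.

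For the opposing motor, dynein and its partner dynactin, 7 of 20 measured genes were below 0 and the median was 0.018, or 0.069 without JG-98 replicate 3. Nde1, a dynein regulator that also acts at kinetochores, was lowest of them at -0.24 ± 0.068, and Dctn1, Dynlrb1 and Dctn3 were at -0.19 ± 0.091, 0.10 ± 0.061 and 0.086 ± 0.064. Of 18 intraflagellar transport genes, cargo of the kinesin-2 motors, 17 were below 0, but the median of -0.058 was -0.015 without JG-98 replicate 3, on which the median deviation was -0.20, and -0.12 without control replicate 2. Ift46 was at -0.19 ± 0.059, Ift80 at -0.36 ± 0.12, Wdr19 at -0.30 ± 0.13 and Ift172 at -0.26 ± 0.13. The 13 measured tubulin genes, the track itself, had a median of 0.0087, which was -0.0033 without that array, with Tuba1c at -0.37 ± 0.13, Tuba4a at 0.16 ± 0.073, Tubb4a at 0.26 ± 0.14 and Tubb4b at -0.19 ± 0.10.

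**Figure D4:**
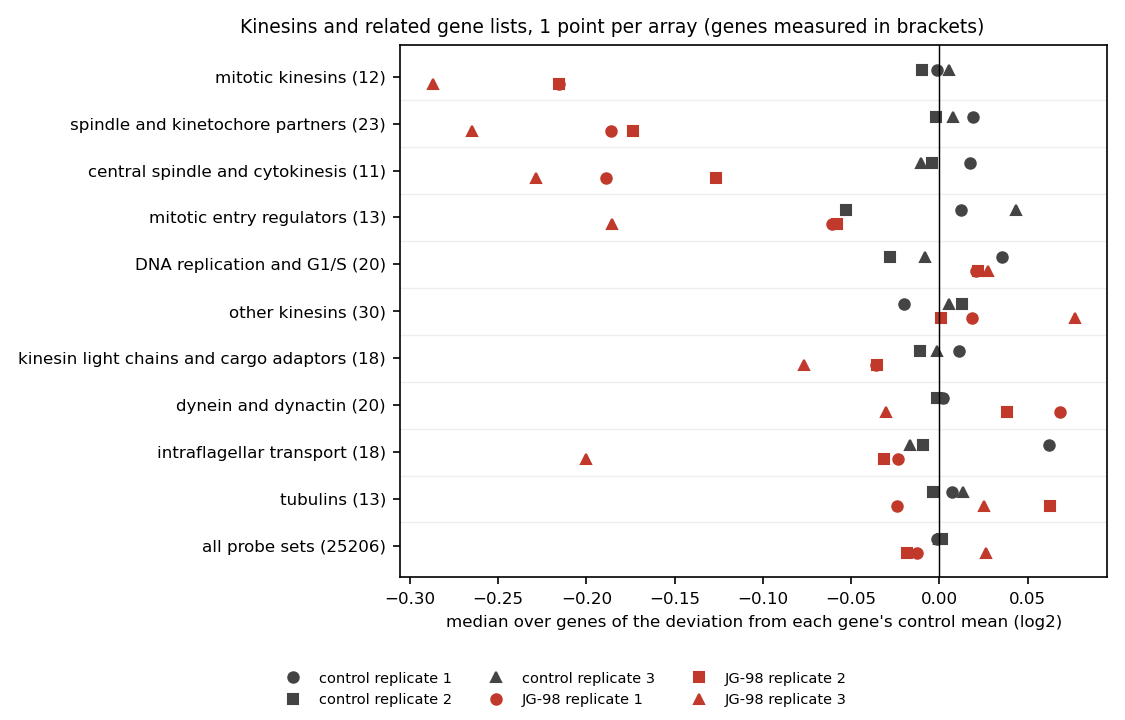
Median over the genes of each list of the deviation from each gene's control mean (log2, horizontal axis), with 1 point per array. For the mitotic kinesins the JG-98 arrays lie between -0.29 and -0.22, and for the other kinesins between 0.00082 and 0.077. The spindle and cytokinesis lists lie to the left with the mitotic kinesins.

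Markers of macrophages and of other cell types that a marrow culture could hold were read on the same arrays. The 9 measured macrophage markers had a median difference of -0.088, or -0.047 without JG-98 replicate 3, and 7 were below 0. Their summed log2 level was 91.6 to 92.0 in controls and 90.5 to 91.2 with JG-98. C1qa was at -0.24, Mrc1 at -0.22 and Mertk at -0.22, each at an unadjusted p under 0.05. At that threshold 4.48% of all probe sets were lower and 3.84% higher. In 4 of the 9, Csf1r among them, all JG-98 values lay below all controls, as in 8.44% of all probe sets. In 1 all lay above, as in 7.12%. Among probe sets with a mean of at least 6, which all 9 markers reached, these shares were 16.7% and 12.7%. Of 8 progenitor markers, 5 were below 0, with summed levels of 31.9 to 32.8 in controls and 31.7 to 32.9 with JG-98. Cd34 differed by -0.32 at a control mean of 7.56, also at an unadjusted p under 0.05, while Kit, Flt3, Mpo, Elane, Prtn3, Ctsg and Cebpe had control means of 2.62 to 4.23. The remaining lists had medians from -0.083 for mast cells to 0.085 for endothelial cells, with those for neutrophils at 0.065, dendritic cells at 0.030, B cells at -0.0093, T and NK cells at -0.043, erythroid cells at 0.014, stromal cells at 0.061, ciliated cells at -0.0035 and neurons at 0.077. Several of these moved with JG-98 replicate 3. Without that array the medians were -0.195 for mast cells, -0.18 for B cells, -0.15 for stromal cells and -0.14 for T and NK cells, and those of the others lay between -0.030 for progenitors and 0.061 for endothelial cells. All members of the B cell, T and NK cell and mast cell lists had means under 4 in both groups. The B cell marker Ms4a1 (0.28) and the stromal markers Col3a1 (0.31) and Dcn (-0.18) also had an unadjusted p under 0.05, at means under 4. Limma called no marker after adjustment over all probe sets, and the part of these cells in the mitotic difference was not tested.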

How the data were processed

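The deposited table holds a log2 expression value for each probe set on each array. Per the submitters' processing notes, the tools include RMA, affy and R 2.15.1, with no roles stated. A genome build for the arrays was not given in the sources used here. RMA normalizes arrays against each other, so a shift shared by all genes would be lost, and it compresses differences of dim probe sets. Probe sets carry Entrez numbers, and 23185 of 25206 had 1 symbol, updated through RefSeq (GRCm38.p6), 0 had several and 2021 had none.

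Differences (JG-98 minus control) were fitted with limma 3.58.1 in R 4.3.3 on all 25206 probe sets, with two-sided moderated tests and Benjamini-Hochberg adjustment at 0.05. The fit had 4 residual and 2.59 prior degrees of freedom. It was also run on simulated data, drawn with independent normal errors from its own prior variance and without an outlying array. That run checks the code and cannot show how well the model suits these arrays. Nothing says that replicates were separate cultures or animals, so the p-values reflect sample-to-sample spread that could be purely technical. The number of arrays limits precision.

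Members and gene lists were chosen with earlier results of these data known, so lists carry no test and are given by counts and medians. Named were all mitotic members, other members at an unadjusted p under 0.05 or among the 2 smallest p of their class, the 4 smallest p of each related list, and Cenpe. Stard9, also in that rule, was not among the genes named on the arrays and was not analysed here. Further members and marker genes were named after their values were seen. Other settings were median centring, quantile normalization, filters at means of 4 and 6, an intensity trend, a robust prior, array weights (statmod 1.5.0), the replicate number as a block, and each array left out.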

Additional observations from a re-analysis of the deposited data

How the results depend on the processing

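Of the kinesins, limma called 0 as deposited and 0 with either scaling, the filter at a mean of 4, the robust prior, array weights or any 1 array left out. Few probe sets of any kind were called there, 10 as deposited, 7 with median centring and 11 with quantile normalization. The filter at a mean of 4 gave 59 of 13090, the robust prior 10 and array weights 25. Without JG-98 replicate 3 there were 5, and with any other array left out 0, so that no kinesin could be among them. Limma called 6 kinesins with the filter at a mean of 6, which tests fewer probe sets, and 4 with the intensity trend. Of all probe sets tested in these 2 settings, 4.77% and 1.01% were called. With the replicate number as a block it called 0 of the 25206 probe sets and so 0 kinesins (smallest limma adjusted p of a kinesin = 0.67). In that fit 6 mitotic kinesins were lower at an unadjusted p under 0.05, against 9 in the main fit. The share of all probe sets at that threshold was not worked out for the block fit, so the 6 cannot be set against it. The same-numbered arrays had correlations of 0.095, -0.13 and 0.10 between their deviations, and control replicate 1 correlated best with JG-98 replicate 2. Deviations from a group mean cancel within the group, which ties these correlations to each other. With so few arrays they cannot decide whether same-numbered samples were paired. The labels give a replicate number and state no pairing. The mitotic median stayed within -0.25 and -0.21 with any 1 array left out, and all 12 mitotic genes kept a difference below 0 in every setting tried. Leaving out arrays gave medians of -0.013 to 0.049 for the other kinesins, -0.23 to -0.18 for spindle and kinetochore genes, -0.21 to -0.16 for cytokinesis genes, -0.00049 to 0.069 for dynein and dynactin and -0.051 to 0.068 for tubulins. Median centring gave -0.076 for light chains and adaptors, as it shifts all genes alike. Of 814 values of 59 named genes in other settings, 782 kept their direction and side of the threshold, 31 passed it in the filter at a mean of 6 or the trend fit, and 1 turned, that of Kifc5b, which ranged from -0.38 to 0.0041 over the left-out arrays. The comparison within genes of a mean of at least 6 was chosen after seeing the data.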
